A study of Mus musculus with 6 samples.

Results

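Transcription regulators of the undifferentiated spermatogonial state were described in cultured mouse spermatogonia whose Cdkn1c gene, which encodes the cell cycle inhibitor p57, was floxed. The members were 8 genes chosen by name from the raw count table (Zbtb16, Sall4, Foxo1, Taf4b, Eomes, Pax7, Utf1 and Egr4), 8 of the 32285 genes listed there, and each was found once. The cells were GS cells, a culture of spermatogonia that can be kept and expanded in a dish and holds stem cells. In both groups the cells carried the floxed alleles: 3 control libraries have the genotype p57 flox/flox and 3 p57 KO libraries the genotype p57 flox/flox-Cre. Per the labels Cre came from an adenovirus, and cells were lysed for RNA 2 days after infection, following trypsin treatment and a Sephadex G15 column.

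What limits these groups as a model can be read from the labels in part. Whether control cells received a virus without Cre, which part of Cdkn1c was removed and in what share of the cells is not stated there. Separate cultures are not stated for the replicates either, so the p-values reflect how far these libraries differ, and that spread may be technical. The mice were 3 days old in the growth protocol and 10 days old in the design text, and their strain is BDF1 in one label and C57BL/6 and 129 in that text.

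In the testis, undifferentiated spermatogonia hold the stem cells of spermatogenesis and either renew themselves or commit to differentiation, marked by the receptor KIT. GDNF, signalling through RET and GFRA1, and FGF favour self-renewal, and a set of nuclear factors keeps the undifferentiated state. PLZF (encoded by Zbtb16) and SALL4 are zinc finger factors that bind each other and recruit corepressors. FOXO1 is a forkhead factor that AKT drives out of the nucleus. EGR4 belongs to the EGR zinc finger family, EOMES is a T-box factor, PAX7 a paired box factor, UTF1 a chromatin-bound protein and TAF4B a gonad-enriched subunit of the general transcription factor TFIID.

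Library totals lay between 15662833 and 17893671 counts, and 14814 genes passed a filter on low counts, all 8 members among them. Levels are CPM, counts relative to the library size after TMM scaling, as mean ± SD over 3 libraries, and a log2 fold change compares p57 KO with control. It is given with its standard error (SE) and a p from edgeR's quasi-likelihood test, Benjamini-Hochberg adjusted over the 14814 genes; "fell" and "rose" stand for an adjusted p under 0.05. Cdkn1c, the target, had 20.7 ± 0.782 CPM in control against 8.89 ± 0.486 CPM after Cre, with a log2 fold change of -1.22 (edgeR, SE 0.09, adjusted p = 4.07e-09).

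Of the 8 regulators, 6 fell, 0 rose and 2 were not called. Over all tested genes 11.6% fell and 11.6% rose. The median log2 fold change of the members was -0.33, against -0.0019 over all tested genes. The 6 that fell were Eomes, Egr4, Zbtb16, Sall4, Pax7 and Foxo1, in order of the size of the change, from 62.8% to 89.7% of the control level. Each of the 6 had its 3 p57 KO libraries below its 3 control libraries, a separation that 19.7% of all tested genes showed in that direction. The same 6 fell with RLE size factors, DESeq2, limma-voom, no filter, a filter of at least 1 CPM in 3 libraries and the replicate number in the model, where 11.5%, 7.05%, 10.5%, 7.92%, 11.7% and 12% of all genes fell. With control replicate 1, 2 or 3 left out 5 members fell, beside 8.62%, 8.9% and 7.77% of all genes. Without p57 KO replicate 1, 2 or 3 it was 6, 5 and 6 members, beside 12.5%, 8.87% and 8.52%. These are bulk libraries, in which fewer cells of a type and less RNA per cell cannot be told apart.

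**Figure D1:**
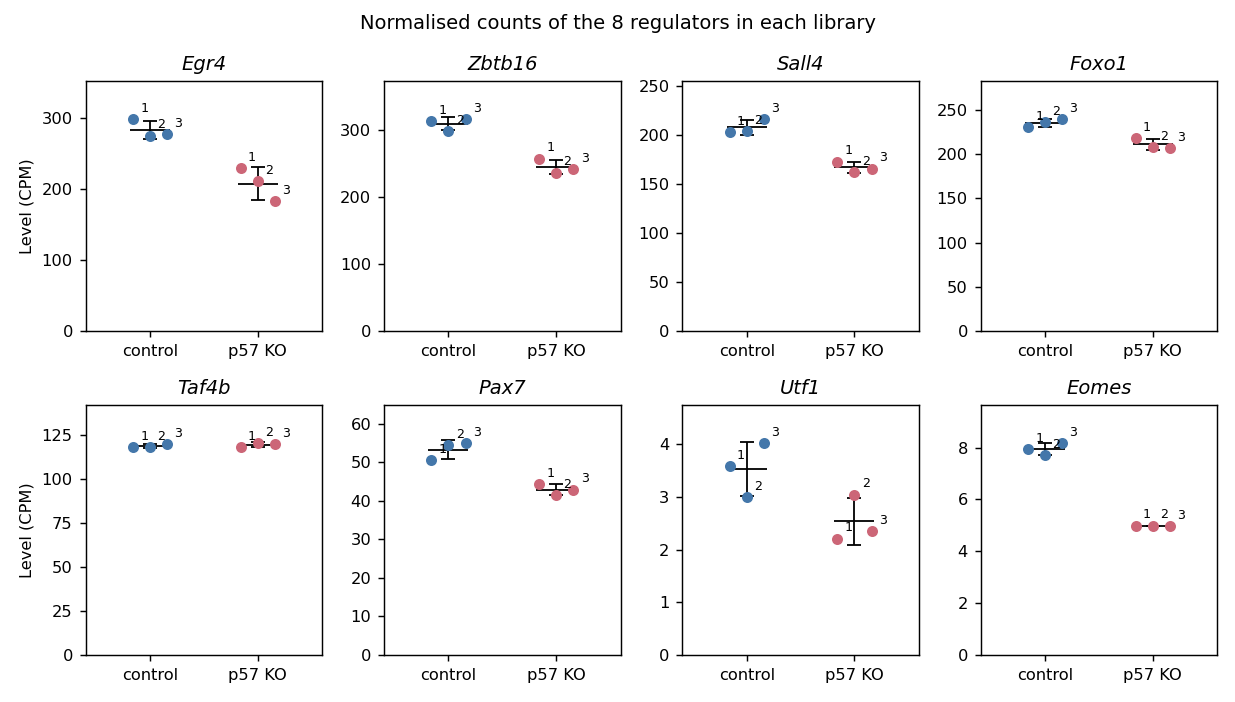
Level in CPM (y axis, from 0) of each regulator in the 3 control and 3 p57 KO libraries (x axis); points are libraries labelled with their replicate number, and bars are the mean ± SD. The p57 KO points lie below all control points for Egr4, Zbtb16, Sall4, Foxo1, Pax7 and Eomes, and the groups overlap for Taf4b and Utf1.

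The regulators differed widely in level. To compare genes, CPM was divided by the length of all annotated exons in kb. Egr4 was the most abundant in control at 132 ± 6.01 CPM per kb, a level that 190 of 14810 genes exceeded. Zbtb16 followed with 58.6 ± 1.79, Sall4 with 37.6 ± 1.31, Foxo1 with 27.1 ± 0.534 and Taf4b with 23.1 ± 0.185 CPM per kb. Pax7 had 9.09 ± 0.421, Utf1 2.88 ± 0.419 and Eomes, the lowest, 1.91 ± 0.0568 CPM per kb.

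The order was the same in p57 KO, from 96.9 ± 10.9 CPM per kb for Egr4 to 1.2 ± 0.000909 for Eomes, and in neither group did the libraries of neighbours in the order overlap. Foxo1 and Taf4b had 24.3 ± 0.743 and 23.2 ± 0.252 CPM per kb in p57 KO, and Utf1 2.07 ± 0.364. Which transcripts are used was not measured, so these levels rest on the annotated exon length.

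Zbtb16, the gene of PLZF, is found on chromosome 9, minus strand, from 48654297 to 48836222 (mm10). Its level was 314, 299 and 317 CPM in control libraries 1, 2 and 3, and 258, 237 and 242 CPM in p57 KO libraries 1, 2 and 3. The groups were apart by more than the range within either. The log2 fold change was -0.34 (edgeR, SE 0.03, adjusted p = 3.99e-07), which is 79.2% of control with a 95% interval from 75.6% to 83.0%.

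Sall4 (chromosome 2, minus strand, 168748332 to 168767943) encodes the zinc finger factor that binds both PLZF and the NuRD complex. Its level was 204, 204 and 217 CPM in control against 173, 163 and 166 CPM in p57 KO. All p57 KO libraries were lower, and the log2 fold change of -0.31 (edgeR, SE 0.03, adjusted p = 6.34e-07) corresponds to 80.4% of control (95% interval 76.7% to 84.3%). Within a library the ratio of Zbtb16 to Sall4 CPM was 1.49 ± 0.0448 in control and 1.47 ± 0.0194 in p57 KO, and the groups overlapped. The exons of Sall4 share 526 bp with Gm14261 on the other strand, which had 2 to 7 counts per library.

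Foxo1 (chromosome 3, plus strand, 52268336 to 52353221) showed the smallest of the called falls. It had 230, 235 and 239 CPM in control against 218, 207 and 207 CPM in p57 KO. The groups did not overlap, with a log2 fold change of -0.16 (edgeR, SE 0.03, adjusted p = 0.000684), or 89.7% of control (95% interval 85.9% to 93.7%). The ratio of Zbtb16 to Foxo1 CPM was 1.32 ± 0.0474 in control and 1.16 ± 0.0195 in p57 KO, and the ratio of Sall4 to Foxo1 0.886 ± 0.0189 and 0.794 ± 0.00903. In both ratios the 3 p57 KO libraries lay below the 3 control libraries. An exact two-sided permutation test gave p = 0.1 for each, the smallest that 3 against 3 libraries allow, and adjusted over the 28 pairs of members p = 0.187. Gm20402, on the other strand, shares 674 bp with the exons of Foxo1 and had 1 to 6 counts per library.

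Egr4 (chromosome 6, minus strand, 85511121 to 85513589) varied most between p57 KO libraries among the members above 10 CPM. Its level was 299, 276 and 278 CPM in control against 229, 212 and 183 CPM in p57 KO. The groups did not overlap, and the log2 fold change was -0.45 (edgeR, SE 0.10, adjusted p = 0.0388), or 73.2% of control (95% interval 61.0% to 87.8%). This call ended in edgeR when control replicate 1, 2 or 3 or p57 KO replicate 2 was left out, with log2 fold changes of -0.41, -0.47, -0.47 and -0.47 and adjusted p of 0.119, 0.0921, 0.112 and 0.107.

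Eomes (chromosome 9, plus strand, 118478212 to 118486132) marks a subset of undifferentiated spermatogonia and had the deepest fall of the 8. The counts were 131, 131 and 128 in control and 79, 82 and 89 in p57 KO, or 7.95, 7.71 and 8.18 against 4.99, 4.99 and 4.98 CPM. The groups did not overlap. At 79 to 89 counts in p57 KO, values this close together are finer than counting noise, so they do not measure the spread between libraries. The log2 fold change was -0.67 (edgeR, SE 0.13, adjusted p = 0.000698), or 62.8% of control (95% interval 52.1% to 75.8%). It was more negative for 0.398% of all tested genes. Tested against a fold of 1.2 in edgeR, Eomes alone of the members passed (adjusted p = 0.0235), where 0.371% of all tested genes passed as lower. Gm33460 on the other strand shares 118 bp with its exons and had 0 to 6 counts per library.

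Because Eomes and Egr4 had the largest of the called falls, the 250 bases before their RefSeq start sites are shown (GRCm38.p6, the build of the files). The window of Eomes is chr9:118477939-118478188 on the plus strand and that of Egr4 chr6:85513590-85513839 on the minus strand. Capitals mark CCAAT on either strand, the letters TATATAAG, and CGTCA, the other-strand reading of TGACG, which is the core of the cAMP response element.
Eomes promoter: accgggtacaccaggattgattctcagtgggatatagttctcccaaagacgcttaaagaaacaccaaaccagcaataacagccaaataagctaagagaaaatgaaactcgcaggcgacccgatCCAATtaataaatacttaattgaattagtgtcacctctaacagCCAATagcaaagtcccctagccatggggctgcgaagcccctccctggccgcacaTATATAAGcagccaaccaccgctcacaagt
Egr4 promoter: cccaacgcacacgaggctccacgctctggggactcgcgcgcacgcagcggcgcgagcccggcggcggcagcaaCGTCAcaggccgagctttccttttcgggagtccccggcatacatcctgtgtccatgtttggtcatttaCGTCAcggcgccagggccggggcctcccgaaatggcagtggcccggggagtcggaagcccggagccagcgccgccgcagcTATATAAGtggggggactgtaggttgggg

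Both windows hold TATATAAG, 30 to 23 bases before the start in Eomes and 29 to 22 bases before it in Egr4. The RefSeq start of Eomes lies 23 bp from the GENCODE start, and the 40 bases after it are not all in a GENCODE transcript, so the distances in Eomes depend on which start is taken; for Egr4 the starts are 0 bp apart. Of 32851 RefSeq windows of this length 0.935% hold it on either strand, and 17.8% hold TGACG or CGTCA, which Egr4 has at 177 and 109 bases before the start. CCAAT or ATTGG occurs in 33.8% of windows, and Eomes holds CCAAT at 127 and 84 bases before its start. TATATAAG and TGACG were picked after the windows had been read. A base content of 68.0% G and C with 28 CpG sites in Egr4 and of 46.4% with 8 CpG sites in Eomes can be set against medians of 52.4% and 6 over all windows. A match of letters describes the sequence and is not a binding site.

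RefSeq windows were taken for 5 of the 8 members, with Foxo1, Pax7 and Utf1 besides. The RefSeq start lies 1 bp from the GENCODE start in Foxo1, 67 bp in Utf1 and 560 bp in Pax7. The Pax7 window thus lies inside the GENCODE gene, and distances in Utf1 depend on which start is taken. No window was taken for a member on chromosome 18, where Taf4b lies, so its absence is not a search result. Foxo1 has ATTGG at 162, 55 and 23 bases before its start, and Utf1 has the GC box GGGGCGGGG at 139 bases, a motif in 10.4% of windows. The other motifs searched were the FOXO site GTAAACA (3.17% of windows), the T-box motif AGGTGTGA (1.12%), the EGR site GCGTGGGCG (0.536%), the E-box CACGTG (6.02%), the cAMP response element TGACGTCA (1.55%), the octamer ATGCAAAT (1.6%), the homeodomain site TAATTA (4.84%) and the TATA box TATAAA (12.4%). These letters were in none of the 5 windows on either strand. Only exact letters were searched and TATATAAG was counted apart, so the lack of TATAAA does not mean that a TATA box is absent. TGACG is contained in TGACGTCA.

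Pax7 (chromosome 4, minus strand, 139737062 to 139833528) is known in the mouse testis as a marker of rare stem spermatogonia. It had 50.5, 54.4 and 55.0 CPM in control against 44.3, 41.4 and 42.9 CPM in p57 KO. All p57 KO libraries were lower, and the log2 fold change was -0.31 (edgeR, SE 0.05, adjusted p = 0.000146), or 80.4% of control (95% interval 74.7% to 86.6%). The ratio of Sall4 to Pax7 CPM was 3.91 ± 0.142 in control and 3.90 ± 0.0304 in p57 KO.

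Utf1 (chromosome 7, plus strand, 139943789 to 139945112) had the fewest counts of the 8. They were 59, 51 and 63 in control and 35, 50 and 42 in p57 KO, or 3.58, 3.00 and 4.03 against 2.21, 3.04 and 2.35 CPM. The p57 KO replicate 2 lay above control replicate 2, so the groups overlapped. The log2 fold change was -0.48 (edgeR, SE 0.20, adjusted p = 0.0866), with a 95% interval from 54.0% to 95.6% of control before adjustment. At this depth a fall of the size seen for Egr4 was within its interval, and Utf1 was not called.

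Taf4b (chromosome 18, plus strand, 14783245 to 14900359) was the member that moved least. Its level was 118, 118 and 120 CPM in control against 118, 120 and 120 CPM in p57 KO. The groups overlapped, with a log2 fold change of 0.0092 (edgeR, SE 0.03, adjusted p = 0.876) and a 95% interval from 96.0% to 106% of control. The interval leaves out falls as deep as those of the 6 called members. The ratio of Zbtb16 to Taf4b CPM was 2.61 ± 0.0669 in control and 2.05 ± 0.114 in p57 KO, that of Foxo1 to Taf4b 1.98 ± 0.0292 and 1.76 ± 0.0731, and that of Taf4b to Pax7 2.23 ± 0.0975 and 2.79 ± 0.123. In these ratios the groups did not overlap (exact two-sided permutation p = 0.1 for each, adjusted over the 28 pairs p = 0.187).

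Markers of fibroblasts and feeder cells moved with the group, and which cells made this RNA was not measured. The summed level of 20 fibroblast and feeder cell markers, all with counts, was 936 to 1197 CPM in control and 1478 to 2936 CPM in p57 KO. Of these 20 markers 6 rose in edgeR, beside 11.6% of all tested genes, and 18 in both DESeq2 and limma-voom. A log2 fold change below 0 was seen in 0 of the 20, and the median was 1.46. In edgeR 15 rose without p57 KO replicate 1, 3 without control replicate 1 and 2 without control replicate 3. Their mean log2 CPM, called the fibroblast score, lay 0.70, 1.30 and 1.85 above the control mean in p57 KO replicates 1, 2 and 3, and 0.36 above it in control replicate 2. Egr4 was 0.31, 0.42 and 0.63 below its control mean on the log2 scale in the same p57 KO libraries (-0.31, -0.42 and -0.63), while Eomes was at -0.66 in each. Eomes had 79 to 89 counts there, so differences between these libraries could be hidden by counting noise. Zbtb16 (-0.39), Sall4 (-0.35) and Pax7 (-0.36) were lowest in p57 KO replicate 2 and Utf1 (-0.64) in replicate 1. In replicate 3, where the score was highest, they had -0.36, -0.32, -0.31 and -0.55. Foxo1 had -0.11, -0.18 and -0.18 in p57 KO replicates 1, 2 and 3. General germ cell genes, 17 in the table and all with counts, summed to 4233 to 4262 CPM in control and 3921 to 4068 CPM in p57 KO. The number of these 17 that fell was 4, beside 11.6% of all tested genes. It was 2 in DESeq2 and without control replicate 1 or p57 KO replicate 3, 1 once that score entered the model, and 1 that fell beside 1 that rose when these genes set the scale. In p57 KO their mean log2 CPM was 0.02 to 0.07 lower than in control (-0.02, -0.07 and -0.07).

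**Figure D2:**
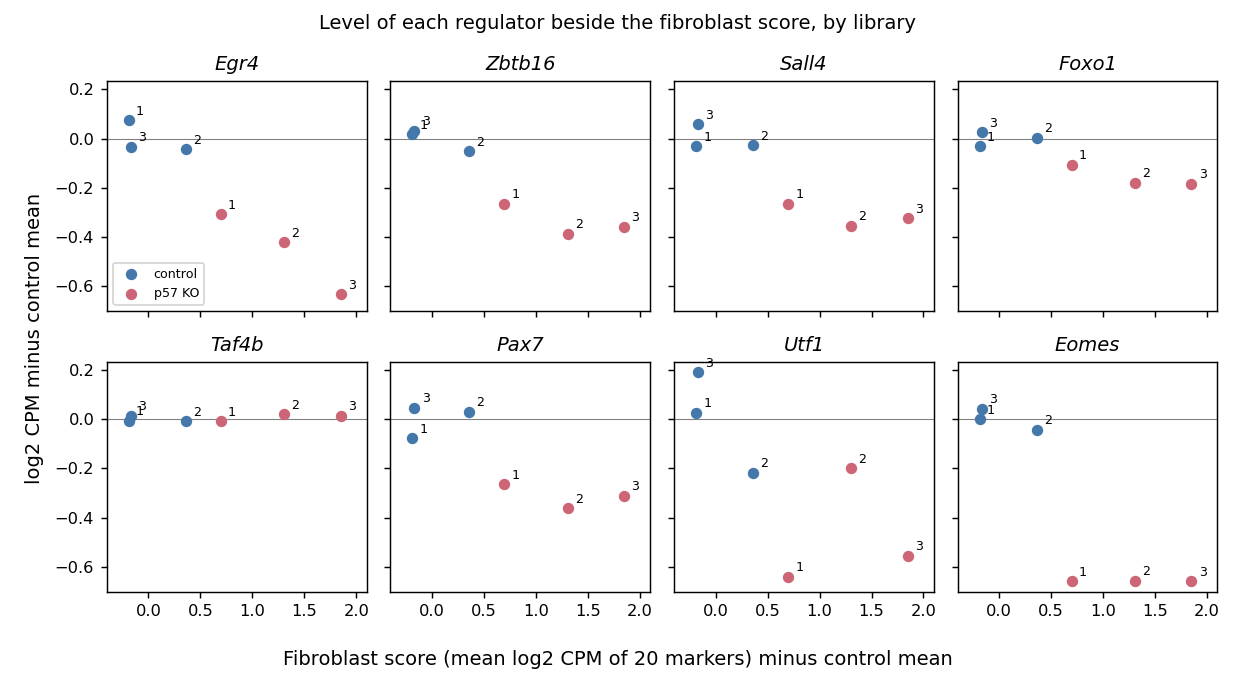
Log2 CPM of each regulator minus its control mean (y axis) beside the fibroblast score, the mean log2 CPM of 20 markers minus its control mean (x axis), in the 6 libraries, labelled with replicate numbers. Egr4 goes from -0.31 to -0.63 over p57 KO libraries whose score goes from 0.70 to 1.85, Eomes is at -0.66 in all 3 on 79 to 89 counts, and Taf4b stays near 0. Zbtb16, Sall4, Pax7 and Utf1 are not lowest in p57 KO replicate 3, the library with the highest score.

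Scaled on the general germ cell genes in place of TMM, the same 6 members were called in edgeR, with log2 fold changes from -0.62 for Eomes to -0.10 for Foxo1 (adjusted p = 0.00185 and 0.0176). Taf4b then had 0.06 (adjusted p = 0.231). On that scale 5.29% of all tested genes fell and 16.6% rose. With the fibroblast score added to the model, Zbtb16 had -0.21 (adjusted p = 0.0244) and Sall4 -0.24 (adjusted p = 0.0210), and these 2 of the 8 were still called, where 0.965% of all tested genes fell and 1.48% rose. The calls of Eomes (-0.63, adjusted p = 0.233), Pax7 (-0.30, 0.110), Egr4 (-0.14, 0.246) and Foxo1 (-0.093, 0.501) ended. The SE of Eomes went from 0.13 to 0.26 in that model and that of Pax7 from 0.05 to 0.10. The score separated the groups with no overlap, so that score and group cannot be told apart in full.

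**Figure D3:**
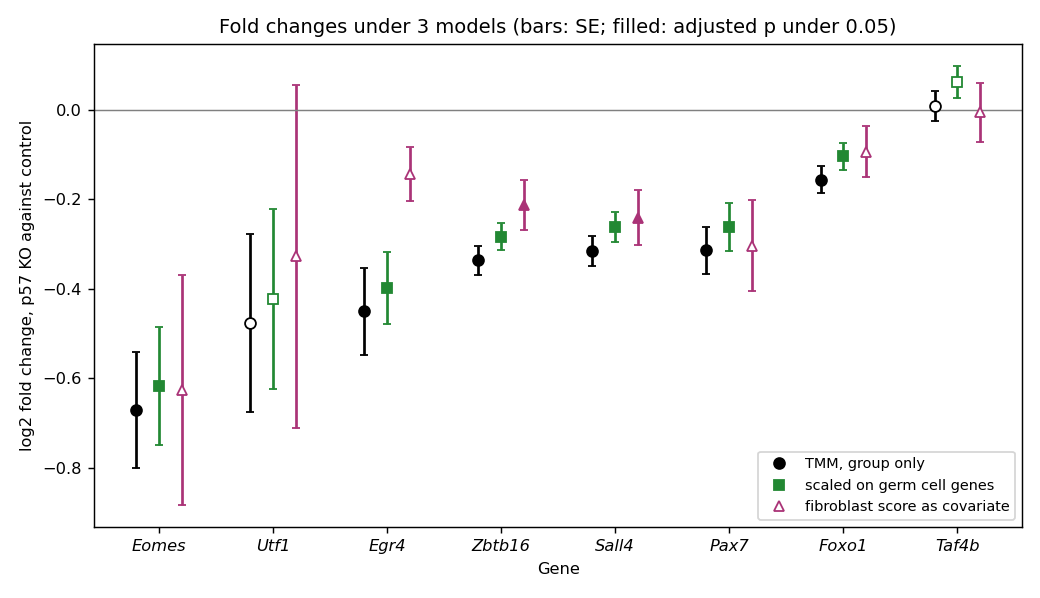
Log2 fold change of each regulator, p57 KO against control (y axis), with bars of 1 SE, for 3 edgeR models; filled symbols have an adjusted p under 0.05. Zbtb16 and Sall4 are filled in all 3 models, and Egr4 goes from -0.45 with the group only to -0.14 with the fibroblast score.

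Markers of other cell types that such a culture could hold were measured in the same way. Sertoli cell markers (11, with 7 tested) summed to 33.4 to 37.3 CPM in control and 33.5 to 35.0 CPM in p57 KO, and 0 were called. Leydig cell markers (7, with Hsd3b1 at 0) summed to 3.00 to 3.94 and 3.25 to 3.35 CPM. Macrophage markers (7, with 3 tested) summed to 13.0 to 14.1 CPM in control and 18.5 to 22.3 CPM in p57 KO. The 3 tested rose in edgeR (Lyz2, Cd68 and Cd14). It was 2 in DESeq2 and with at least 1 CPM in 3 libraries, and 0 with the fibroblast score in the model. Lyz2 and Cd14 had 0.38 and 0.45 CPM in control against 1.71 and 1.11 CPM in p57 KO. They passed the filter on low counts mainly through p57 KO, which favours a rise. Peritubular markers summed to 33.4 to 34.4 and 36.2 to 39.4 CPM with 2 of 3 tested that rose. That was 1 in DESeq2, in limma-voom and on leaving out any library but p57 KO replicate 3, and 0 with the score in the model. Endothelial markers summed to 102 to 107 and 94.4 to 97.8 CPM with 2 that fell and 1 that rose. Meiotic markers summed to 332 to 360 CPM in control and 326 to 330 CPM in p57 KO. Of these 1 of 8 tested fell, where 11.6% of all tested genes fell and 11.6% rose in edgeR. The part of these cells in the members' values was not tested beyond the 2 models above.

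Other transcription regulators linked to undifferentiated spermatogonia were read from a list. Of 19 tested, 12 fell and 0 rose, with a median log2 fold change of -0.11 and a range from -0.54 to 0.05. Among all tested genes 11.6% fell and 11.6% rose. Id4, an inhibitor of helix-loop-helix factors that marks the most stem-like cells, had -0.54 (edgeR, SE 0.04, adjusted p = 1.33e-08). Bmi1, a Polycomb gene, had -0.30 (adjusted p = 5.89e-06), Foxc2, a forkhead gene, -0.33 (adjusted p = 0.000204) and Etv5, a GDNF-responsive ETS gene, -0.20 (adjusted p = 5.46e-05). With the general germ cell genes as the scale 7 of the 19 fell and 1 rose, where 5.29% of all tested genes fell and 16.6% rose. Once the fibroblast score was in the model 2 fell, beside 0.965% of all tested genes.

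Genes of the GDNF receptor, the surface and RNA-binding regulators of undifferentiated spermatogonia parted. Of 19 tested, 8 fell and 2 rose, with a median of -0.14, where 11.6% of all tested genes fell and 11.6% rose. The 2 became 4 with no filter, with the replicate block, on the germ cell scale and without control replicate 2 or p57 KO replicate 1. They became 1 in DESeq2, in limma-voom and on leaving out any other single library. Against a fold of 1.2 and with the fibroblast score in the model 0 rose. Nanos2 fell from 6.54 to 3.47 CPM (-0.92 on the log2 scale, edgeR SE 0.17, adjusted p = 0.000477), Bnc2, a zinc finger gene, had -0.48, Ret, the signalling chain of the GDNF receptor, -0.34 and Gfra1, its binding chain, -0.15. Once the fibroblast score was in the model 1 of the 19 fell, and the calls of Nanos2 (-0.41, adjusted p = 0.619) and Ret (-0.15, adjusted p = 0.0926) ended.

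Genes listed under spermatogonial differentiation moved in both directions. Of 15 tested, 5 rose and 3 fell, with a median of 0.14, where 11.6% of all tested genes rose and 11.6% fell. Ddit4, which encodes the mTORC1 inhibitor REDD1 and is known as a target that PLZF activates, rose from 50.2 to 105 CPM (1.07 on the log2 scale, edgeR SE 0.04, adjusted p = 8.58e-14). It is counted among the 5, but as a PLZF target it is not read here as a marker of differentiation. Kit, which PLZF is known to repress and which was picked after its value was seen, rose from 5.59 to 8.16 CPM (0.55 on the log2 scale, edgeR SE 0.14, adjusted p = 0.00633). Dnmt3a, a DNA methyltransferase gene, had -0.21, Sohlh2, a helix-loop-helix gene, -0.21 and Ccnd2, a G1 cyclin gene, -0.13, and these were the 3 that fell. With the score in the model 2 rose and 0 fell, and 3 rose without control replicate 3 or p57 KO replicate 2.

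**Figure D4:**
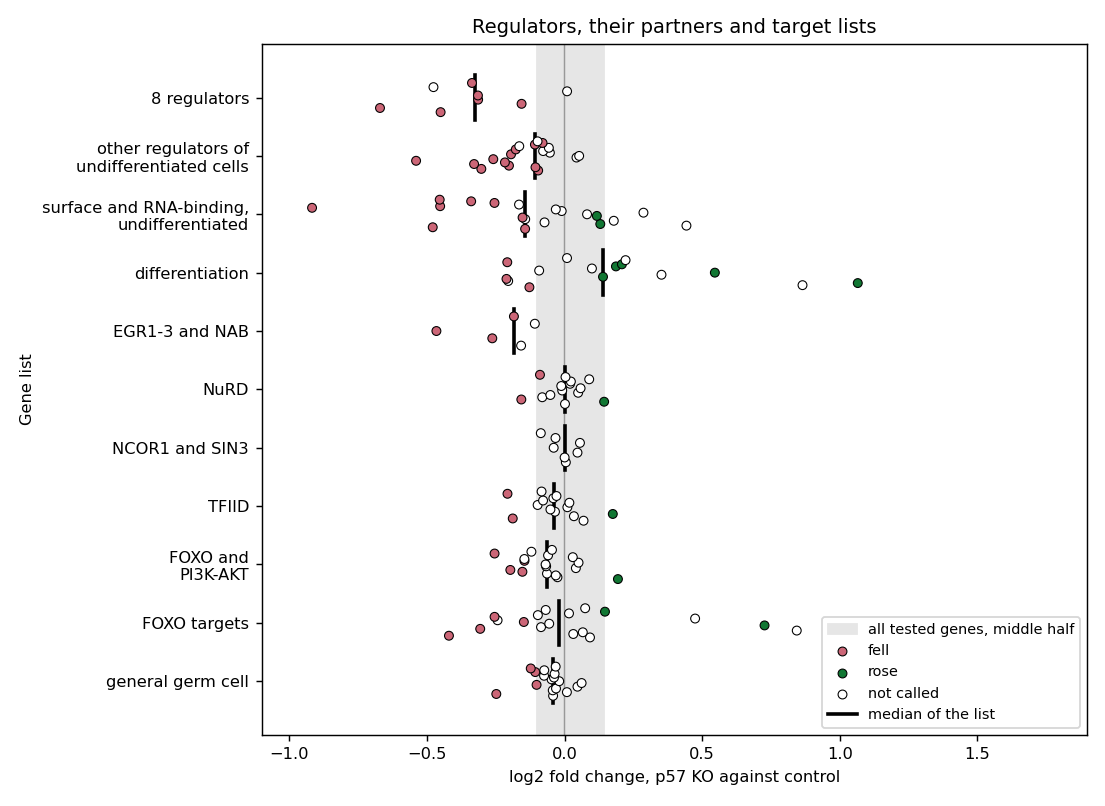
Log2 fold change, p57 KO against control (x axis), of the tested genes of each list (y axis); red points fell, green points rose, white points were not called, black lines are list medians and the grey band holds the middle 50% of all tested genes. The 8 regulators have a median of -0.33, and the medians of the NuRD, NCOR1 and SIN3, and TFIID lists lie within 0.04 of 0.

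The complexes that work with these factors were compared next. Of 14 subunits of NuRD, the remodelling complex that SALL4 binds, 2 fell and 1 rose, with a median of 0.0025: Chd4 had -0.16 (edgeR adjusted p = 0.00035) and its paralog Chd3 0.14 (adjusted p = 0.00372). On the germ cell scale 1 fell and 3 rose, with the fibroblast score in the model 0 were called, and 1 fell in DESeq2, in limma-voom and without control replicate 1 or 3 or p57 KO replicate 3. Of 7 genes of the NCOR1 and SIN3 corepressors, which PLZF binds, 0 were called in edgeR, DESeq2 or limma-voom, and 0 had an unadjusted p under 0.05 in edgeR. Without control replicate 1 there was 1 that fell, and on the germ cell scale 1 that rose. The median was 0.00021 and the range -0.09 to 0.06. Of 14 other TFIID subunits 2 fell (Taf9b with -0.21 and Taf10 with -0.19) and 1 rose (Taf12 with 0.18), with a median of -0.04. On the germ cell scale 2 fell and 2 rose, and 0 were called with the score in the model. Over all tested genes 11.6% fell and 11.6% rose. The call of Taf12 ended in DESeq2 (adjusted p = 0.165) and in limma-voom (0.0562), and without control replicate 1 or 3 or p57 KO replicate 2 or 3. The paralog of Taf4b, Taf4, picked after its value was seen, had 63.2 CPM in control against 59.1 CPM in p57 KO (adjusted p = 0.123).

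Around FOXO1, 4 of 17 genes of the FOXO family and the PI3K-AKT pathway fell and 1 rose, with a median of -0.06. Rictor, an mTORC2 subunit, had -0.25 (edgeR adjusted p = 5.97e-06), Foxo6 -0.20 (adjusted p = 0.00405) and the PI3K subunit gene Pik3cd -0.15 (adjusted p = 0.00905). Akt1, the gene of the kinase that drives FOXO1 out of the nucleus, rose from 119 to 136 CPM (0.19, edgeR SE 0.04, adjusted p = 0.00047). Of 18 general FOXO targets 2 rose and 4 fell, with a median of -0.02, among them Bcl6 with -0.42, Cited2 with -0.31 and the stress gene Gadd45a with 0.73. Rictor is on both lists, so its fall is counted in each. For comparison, 11.6% of all tested genes fell and 11.6% rose. With the score in the model the 5 calls of the pathway list ended, and of the targets 1 was higher, where 0.965% of all tested genes fell and 1.48% rose. Of the targets 1 rose in DESeq2 and without control replicate 2.

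Paralogs of the members were compared as well. In the EGR family Egr3 fell from 35.7 to 25.8 CPM (-0.47, edgeR SE 0.07, adjusted p = 8.30e-05) and Egr2 from 106 to 88.3 CPM (-0.26, SE 0.04, adjusted p = 0.000298), and the corepressor gene Nab2 had -0.18. Egr1, picked after its value was seen, had 312 CPM in control against 279 CPM in p57 KO (-0.16, adjusted p = 0.101). Sall3 and Sall1 had -0.19 and -0.18 (adjusted p = 0.000881 and 0.00232). Of 13 tested paralogs 5 fell and 0 rose, where 11.6% of all tested genes fell and 11.6% rose. With the score in the model 1 paralog fell, beside 0.965% of all tested genes, and 2 rose without p57 KO replicate 1. Of the 5 EGR1 to EGR3 and NAB genes 3 fell, and 1 with the score.

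The genes whose log2 CPM followed each member most closely over the 6 libraries were taken from 9541 named genes of at least 10 CPM. For Zbtb16 they were Ap2a2, Wasf1 and Pelp1 (Pearson r of 0.999, 0.998 and 0.997), for Sall4 Abca1, Cpeb1 and Pnpla2 (0.998, 0.998 and 0.997) and for Foxo1 Tril, Timm17b and Hlcs (0.999, 0.999 and 0.998). Casz1, St6galnac3 and Nrros stood next to Pax7 (0.999, 0.998 and 0.995) and Msi2, Sall3 and Fyn next to Egr4 (0.998, 0.996 and 0.996). For Taf4b the closest were Mrpl22, Prkra and Zyx (0.983, 0.976 and 0.968). The points share the 6 libraries and, apart from Taf4b, the difference between the groups, so these values are a description. Sall3, a SALL family gene, was both a paralog and a neighbour of Egr4.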

How the data were processed

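Stranded mRNA libraries of 3 control and 3 p57 KO samples were read from one end over 76 bp, per the labels. The authors deposited raw counts per gene, 1 column per library. Counting with HTSeq 2.0.2 after HISAT2 2.2.1, on build mm10, follows from the submitters' processing notes, which also list cutadapt 3.4 and bcl2fastq 2.20. The annotation, the strand setting and the treatment of multi-mapping reads are not given in these sources, so overlapping genes are uncertain. Of 32285 identifiers 32158 were found in GENCODE M21 (same build), which gave positions and exon lengths.

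Counts were filtered with filterByExpr, scaled by TMM and tested in R 4.3.3 by edgeR's quasi-likelihood test (version 4.0.16) between the groups, without covariates, with robust dispersions and Benjamini-Hochberg adjustment over 14814 genes. Intervals use the test's SE and degrees of freedom. On simulated data with the means and dispersions of these libraries (14655 genes), 64, 70 and 66 genes were changed 1.2-fold, 1.5-fold and 2-fold. The test recovered 37.5%, 71.4% and 90.9% of them. It made 17 false calls among 151, a larger share than the threshold of 0.05 names. Far fewer genes were changed than were called in the data, so these rates need not carry over.

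Genes named were the 8 members, Cdkn1c, up to 4 genes of smallest p per list and, for members of at least 10 CPM, the 3 genes of highest Pearson r of log2 CPM (prior count 2); exceptions are marked. The members and lists were chosen with earlier results of these data known, and 1 gene of a list is not reported here. Alternatives were DESeq2 1.42.0, RLE size factors in edgeR, limma-voom (limma 3.58.1), no filter, a block for the replicate number, at least 1 CPM in 3 libraries, leaving out each library, a test against a fold of 1.2, scaling on germ cell genes, and the fibroblast score as a covariate. Replicate pairs differed by more than sampling noise (chi-square per degree of freedom 1.69 to 5.97), so each was counted as 1 sample.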

Additional observations from a re-analysis of the deposited data

How the results depend on the processing

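The count of 6 members that fell was the same with RLE size factors, DESeq2, limma-voom, both other filters, the replicate block and scaling on germ cell genes, and was 5 to 6 when 1 library was left out. It was 1 in the test against a fold of 1.2 and 2 once the fibroblast score was a covariate. No member rose under any alternative run. Over all genes 1725 fell and 1725 rose; 1044 fell in DESeq2, 55 fell and 414 rose in the test against a fold of 1.2, 783 fell and 2462 rose with scaling on germ cell genes, which moved the median of all genes to 0.05, and 143 fell and 219 rose with the score. The cause of these changes was not tested, apart from the narrower hypothesis of the fold test. The sign turned for Taf4b (-0.0056), Gatad2a (0.022), Thy1 (-0.12, where it rose by 0.51 without the score), Inha (0.082), Mrpl22 (-0.037), Prkra (-0.10) and Zyx (-0.028) with the score. Thy1 is itself 1 of the 20 markers in the score, so its turn is not an independent result. On the germ cell scale the sign turned for Sin3a (0.013) and Mylk (0.018). It also turned for Mylk without control replicate 1 (0.0033) or p57 KO replicate 2 (0.034), and for Mrpl22 without p57 KO replicate 2 (-0.0038, the lowest of a range up to 0.105 with 1 library left out).

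Libraries with the same replicate number were not clearly alike. Their deviations from the group means correlated at 0.19, 0.02 and -0.10 over genes. The highest correlation was 0.27, between control replicate 2 and p57 KO replicate 3, and 3 of 6 libraries correlated best with their own number. With so few libraries these values cannot tell whether a number stands for a shared batch. The replicate block gave 1772 genes that fell and 1934 that rose and the same 6 members, with Egr4 at an adjusted p of 2.96e-06. Depth limits Utf1, with 35 to 63 counts per library.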
